A study of Homo sapiens with 18 samples.

Results

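The loci described here are long noncoding RNAs (lncRNAs) in which no small RNA had been annotated. They were taken from a table of read counts over noncoding RNA rows: rows of the type lncRNA that spanned more than 500 nt, overlapped no row of another RNA type on either strand, and held at least 180 counts summed over 18 small RNA libraries. Rows with identical counts in every library were taken once, and 30 rows carrying 6 names, among them MALAT1 and NEAT1, were set aside. Of the 175935 rows of the table, 155223 were lncRNA rows, 146001 of these spanned more than 500 nt, 122218 of these overlapped no row of another type, and 4364 of these reached 180 counts. After the last steps 3669 members remained. Members often overlapped each other, since 2063 of them shared their name with another member, and they formed 1660 loci, of which 1007 held a single member. Overlapping members share reads, so numbers are given below both for members and for loci, each locus being represented by its member with the highest summed count.

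The summed count chose the members and is given as a description. Its median was 297 and its range 180 to 61779, with a few members far above the rest. At the threshold, 41 members such as lnc-AKR7A2-3 held exactly 180 counts, and 32 rows such as ENSG00000274265.5 were left out with 179. A row that is high in one condition or fraction can reach 180 only with the counts of those libraries, and then had to differ there. This is stated below for the members named as called, except for some loci shown for their sequences, where it was not tested. Some members overlapped a set-aside lncRNA: HSALNG0084892, ENSG00000245532.9 and NONHSAG008670.2 overlapped NEAT1, and NONHSAG037962.2 overlapped LINC02260.

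Long noncoding RNAs are transcripts without a long reading frame, made mostly by RNA polymerase II, and they are found in the nucleus and the cytoplasm. Small RNA sequencing reads short molecules, so a count on an lncRNA row stands for short fragments from within its span and not for the full transcript. Fragments of rRNA, tRNA, Y RNA and mitochondrial transcripts are abundant in cells, and copies of such sequences are scattered over the genome, inside lncRNA genes as well. SSB encodes La, a protein that binds the uridine-rich 3′ ends of new RNA polymerase III transcripts, among them tRNA precursors and Y RNAs.

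HEK293T, a line from human embryonic kidney, received si-scramble (control) or si-SSB (siSSB) with RNAimax for 48 hours, and RNA was taken from whole cells (total), nuclei (nuc) or cytoplasm (cyto). Each of the 6 groups had 3 libraries, described as biological replicates, and all carried the label Plus_PNK, which names polynucleotide kinase, an enzyme that changes phosphate groups on RNA ends. All groups came from a single cell line with a transient knockdown. The comparisons ask which RNAs respond to loss of La in each fraction and which lie in the nucleus or the cytoplasm.

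Column sums ran from 21565995 to 158244813 counts, being 21565995 to 44712500 in the cyto groups and 98928007 to 158244813 in the nuc groups. Member loci took 0.303% to 0.425% of the column sum in cyto, 0.0187% to 0.0359% in nuc and 0.0696% to 0.176% in total, where siSSB total replicate 2 was the highest. The median count of a member was 22 to 32 in cyto libraries, 14 to 21 in total and 6 to 10 in nuc, so that nuclear values were the least precise. Levels are given as CPM, the count scaled to the TMM-adjusted library size, and TMM factors ran from 0.211 in nuc to 4.63 in cyto. The table holds noncoding rows alone, so protein markers of the cell line or of the fractions could not be checked here. Fewer cells in a fraction and less RNA per cell cannot be told apart.

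The rule removed annotated small RNA rows, but the sequence of some loci still held copies of small RNAs. In hg38, 209 members held a small RNA gene of GENCODE v44 that is not a row of the table. A stretch of at least 30 bases identical to the mitochondrial DNA, rRNA, tRNA or other small RNA sequences searched was found in 67 of the 1660 loci. Some small RNAs were left out of the search, so other loci may hold such a stretch. These 67 loci carried 30.1% of the summed counts of the loci. For 18 loci the stretch matched mitochondrial DNA, for 18 rRNA, for 9 a tRNA, and for 22 another small RNA, of which 8 matched a Y RNA. The longest identical stretches of 5 rRNA-like loci are printed first, 5′ to 3′ along the rRNA strand, with the identical bases in capitals and 8 flanking bases in lower case.
lnc-SLC15A4-24: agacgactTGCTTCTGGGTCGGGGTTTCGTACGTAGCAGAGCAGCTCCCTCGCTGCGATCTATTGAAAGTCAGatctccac
lnc-GCNT1-4: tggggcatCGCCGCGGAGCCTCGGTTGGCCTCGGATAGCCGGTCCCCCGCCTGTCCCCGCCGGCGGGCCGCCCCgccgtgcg
lnc-REG3G-6: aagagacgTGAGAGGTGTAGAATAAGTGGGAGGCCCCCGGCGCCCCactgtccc
lnc-PPP4R1-15: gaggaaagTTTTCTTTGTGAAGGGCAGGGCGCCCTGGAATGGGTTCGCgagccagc
AC024563.1: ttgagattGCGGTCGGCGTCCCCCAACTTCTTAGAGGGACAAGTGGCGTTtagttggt

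The stretch of lnc-SLC15A4-24 (chr12:127165920-127166000, minus strand) matched bases 4981 to 5045 of the 5066-nt 28S rRNA, near its 3′ end. That of lnc-GCNT1-4 (chr9:76571735-76571816, plus strand) matched bases 4733 to 4798 of 28S rRNA, that of lnc-REG3G-6 (chr2:78701657-78701710, plus strand) bases 3947 to 3984, and that of lnc-PPP4R1-15 (chr18:9296916-9296971, minus strand) bases 2630 to 2669. AC024563.1 (chr19:22694848-22694905, minus strand) held bases 1422 to 1463 of the 1869-nt 18S rRNA.

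The tRNA-like and Y RNA-like stretches are shown because those of their loci that were called between nucleus and cytoplasm were all lower in nuc. The tRNA-like NONHSAG051108.2, lnc-ANGEL1-5 and ENSG00000269793.7, at log2 values of 0.50, -0.02 and -0.55 in control, were not called and are not printed. The tRNA-like lnc-CYB5R2-1 and LINC01720 were called lower in control and are not printed either. Capitals again mark the identical bases, and the whole tRNA-Gly-TCC-2-1 is added with the bases it shares with HSALNG0021982 in capitals.
HSALNG0021982: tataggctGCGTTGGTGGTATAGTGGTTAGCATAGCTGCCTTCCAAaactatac
tRNA-Gly-TCC-2-1: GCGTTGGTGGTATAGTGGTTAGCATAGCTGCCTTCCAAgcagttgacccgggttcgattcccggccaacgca
lnc-DPY19L1-1: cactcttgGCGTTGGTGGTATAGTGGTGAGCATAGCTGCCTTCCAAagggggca
NONHSAG037591.2: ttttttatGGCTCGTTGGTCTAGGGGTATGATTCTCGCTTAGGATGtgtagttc
lnc-PLEKHA5-3: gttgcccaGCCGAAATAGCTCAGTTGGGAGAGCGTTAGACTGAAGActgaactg
lnc-POTEC-1: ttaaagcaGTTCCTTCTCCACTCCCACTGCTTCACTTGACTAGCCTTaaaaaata

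In each of these 4 tRNA-like loci the copy ran from base 1 to base 38 of the tRNA and ended near the anticodon, so each stretch is a 5′ portion of the tRNA. The positions are chr2:210932092-210932145 for HSALNG0021982, chr7:35021145-35021198 for lnc-DPY19L1-1, which matched tRNA-Gly-TCC-1-3, chr4:19057474-19057527 for NONHSAG037591.2, which matched tRNA-Pro-AGG-1-1, and chr12:19613817-19613870 for lnc-PLEKHA5-3, which matched tRNA-Phe-GAA-1-4. All lie on the plus strand of hg38, which is opposite to the strand of the row in the first 3 and the same in lnc-PLEKHA5-3. The stretch of lnc-POTEC-1 (chr18:14482564-14482618, minus strand) matched bases 62 to 100 of the 102-nt Y RNA RNY3, its 3′ portion, and lnc-POTED-5 on chromosome 21 holds a stretch like the same bases of RNY3. Whether the reads counted on any of these loci came from the locus or from the rRNA, tRNA or Y RNA genes was not tested, since the table holds no read sequences.

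A last set of sequences concerns SSB itself, the gene targeted by the knockdown. The member HSALNG0020274 (chr2:169806811-169811069, plus strand) overlaps exons of SSB and of METTL5, a methyltransferase gene, and lnc-PRKAB2-5 (chr1:147082313-147083603, minus strand) holds SSBL4P, a pseudogene of SSB. These members shared 13 identical stretches of at least 19 bases, 400 bases in all, the longest of which is 47 bases long and lies in the SSB coding sequence at chr2:169808507-169808553. Another member, AC024598.1 (chr10:62374167-62672036), overlaps an exon of ZNF365. Of the 166 windows of 19 bases that the first 2 members share, none was identical in AC024598.1 and a single one came within 1 base. The capital marks that base, G14T counted from the 5′ end of the window, with SSB first.
shared by HSALNG0020274 and lnc-PRKAB2-5: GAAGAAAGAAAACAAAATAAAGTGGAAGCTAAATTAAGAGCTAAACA
HSALNG0020274, window closest to AC024598.1: agattggatgcttGctgaa
AC024598.1: agattggatgcttTctgaa

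The window in SSB lies at chr2:169810299-169810317, in its coding sequence, and the site in AC024598.1 at chr10:62637578-62637596 on the minus strand, which is also inside the overlapping member AC067752.1. The sequence of the si-SSB used is not in the files used here, so whether it lies in the shared stretches was not tested.

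Signal was uneven over the loci. The median level was 0.00772 CPM per kb of the row over the members, the highest member stood at 96.8, and the 12 loci whose representatives had the highest values held 18.9% of the summed CPM of the loci. The 12 loci described next were picked by the density of any of their members and so are not the same set. NONHSAG028293.2 is among them, although its locus is represented by lnc-REG3G-6 at 0.246 CPM per kb. At the head were lnc-SLC15A4-24 (90.6 CPM per kb), NONHSAG053892.2 (36.8), HSALNG0099819 (26.2), lnc-GCNT1-4 (25.2) and lnc-SAMD11-13 (17.2). The other 7 ranged from 5.68 in lnc-SAMD11-12 to 1.35 in HSALNG0020274. Mitochondrial sequence accounted for 4 of the 12: NONHSAG053892.2 lies on the mitochondrial chromosome itself (chrM:13212-14517) across MT-ND5 and MT-ND6, genes of respiratory complex I, and lnc-SAMD11-13, lnc-SAMD11-12 and HSALNG0057729 hold nuclear copies of mitochondrial DNA, aligned over 746, 1311 and 164 bases with 98.1%, 98.2% and 95.1% identity. Ribosomal sequence lies in lnc-SLC15A4-24, lnc-GCNT1-4 and NONHSAG028293.2, inside which the stretch of lnc-REG3G-6 lies. Among the last, lnc-CGAS-2 overlaps an exon of EEF1A1, the translation elongation factor, and NONHSAG047160.2 an exon of HNRNPA2B1, an RNA-binding protein.

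The plot of levels by library shows that most of the 12 differed little between control and siSSB. For lnc-SLC15A4-24 the counts were 4204, 4055 and 4815 in control total and 4290, 5025 and 4155 in siSSB total. Control nuc libraries held 1957, 1322 and 1243 counts and control cyto libraries 3614, 2913 and 4618. Its level was 70.4 ± 3.5 CPM (SD, n = 3) in control total, 50.3 ± 7.21 in control nuc and 34.9 ± 4.6 in control cyto, and the siSSB groups overlapped the control groups in each fraction. NONHSAG053892.2 varied widely within groups, from 2899 to 12768 counts among the control cyto libraries and from 815 to 3574 among the siSSB nuc libraries. The siSSB libraries stood clear of the control libraries of total and cyto in lnc-PRKAB2-5 and HSALNG0020274, which were higher, and of all fractions in HSALNG0099819, which was lower.

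**Figure D1:**
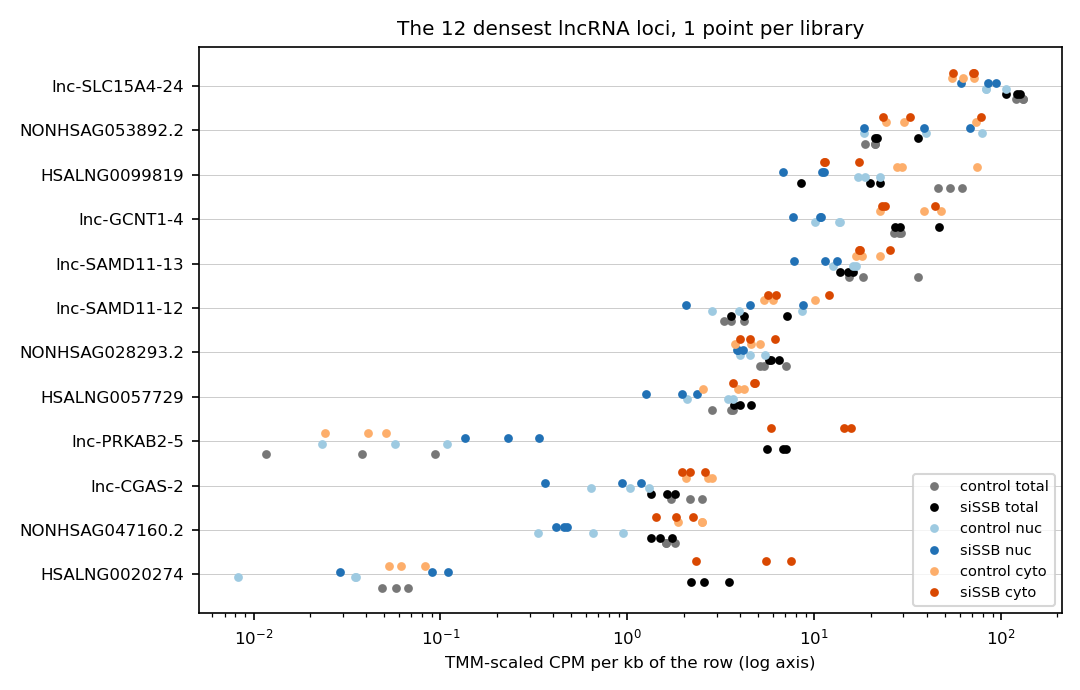
The 12 densest lncRNA loci, with TMM-scaled CPM per kb of the row on a log axis and 1 point per library, coloured by group. For lnc-PRKAB2-5 and HSALNG0020274 the siSSB total and siSSB cyto points lie right of all control points, while the points of lnc-SLC15A4-24 part by fraction, with control total (mean 70.4 CPM) above control cyto (34.9 CPM).

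In total RNA, 13 of 3342 members tested passed an adjusted p under 0.05 in siSSB against control, 4 higher and 9 lower, which is 0.389% where 1.34% of all features passed. Of all features tested 0.367% were higher and 0.972% lower. By locus, 3 of 1521 were higher and 4 lower, and the median log2 fold change of the members was 0.02, against -0.01 over all features. Among lncRNA rows that hold a small RNA row, 51 of 4619 passed (1.10%).

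The members that rose were HSALNG0020274 and lnc-PRKAB2-5, which share SSB sequence, and AC024598.1 with AC067752.1 inside it, where a single window came within 1 base of that sequence. HSALNG0020274 had 12, 15 and 19 counts in control total and 698, 1267 and 547 in siSSB total, a log2 fold change of 5.59 ± 0.33 (SE; adjusted p = 6.8e-06). For lnc-PRKAB2-5 the counts were 7, 3 and 1 against 563, 781 and 423, a change of 7.11 ± 0.45 (adjusted p = 7.4e-06). AC024598.1 had 0, 4 and 2 counts against 28, 61 and 23, a change of 3.97 ± 0.56 (adjusted p = 0.012). No control library overlapped a siSSB library in any of the 3. Their sums over the 9 control libraries were 143, 34 and 35 counts, under the 180 that the rule asks for, so each became a member through its siSSB counts, and their number is no support for a rise of members in general. SSB has no row of its own in the table, and these rows rose in the libraries labelled siSSB, so they do not check the knockdown. Short RNA from the siRNA and fragments of SSB transcripts cannot be told apart in these counts.

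HSALNG0099819 (chr14:20630460-20631030, minus strand) was the densest locus that fell, from 2038, 1610 and 2022 counts in control total to 726, 415 and 752 in siSSB total. This was 30.6 ± 4.37 CPM (SD, n = 3) against 9.67 ± 4.22, a log2 fold change of -1.67 ± 0.34 (SE; adjusted p = 0.036). The nearest annotated small RNA lies 104 nt from this row, which is 1 of 19 members within 200 nt of one. A stretch of 76 bases on the minus strand at chr14:20630432-20630507, of which 48 bases lie inside the row and 28 before its start coordinate, aligned to tRNA-Tyr-GTA-3-2 with 75.6% identity over 82 columns, and the 10 tRNA rows it aligned to were all tRNA-Tyr. The stretch and the tRNA, with its intron, are printed with the bases of the stretch that are the same as in the tRNA in capitals.
HSALNG0099819: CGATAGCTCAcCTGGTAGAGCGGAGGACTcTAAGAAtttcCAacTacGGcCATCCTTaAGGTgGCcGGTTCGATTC
tRNA-Tyr-GTA-3-2: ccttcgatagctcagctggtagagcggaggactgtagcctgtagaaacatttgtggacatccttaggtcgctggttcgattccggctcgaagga

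The tRNA itself lies at chr14:20653099-20653192 on the same strand. In nuc the counts of HSALNG0099819 were 326, 367 and 290 in control and 216, 156 and 187 in siSSB, and in cyto 1547, 1513 and 5646 against 865, 980 and 675. Control and siSSB libraries did not overlap in CPM in either fraction, but with changes of -0.87 ± 0.28 and -1.70 ± 0.38 neither passed (adjusted p = 0.22 and 0.13). Whether reads on this row are fragments of a tRNA-like transcript was not tested.

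The other loci that fell in total RNA held fewer counts. NONHSAG013297.2, which spans LINC00598 on chromosome 13, fell from 45, 26 and 63 counts to 9, 11 and 15, a log2 change of -2.05 ± 0.36 (adjusted p = 0.022). lnc-C1QTNF6-1, in an intron of C1QTNF6, fell from 174, 161 and 175 counts to 59, 49 and 91 (-1.46 ± 0.30, adjusted p = 0.036). lnc-ZNF80-4, which overlaps exons of the transcriptional repressor ZBTB20, had 51, 42 and 56 counts against 19, 27 and 25 (-1.21 ± 0.25, adjusted p = 0.036), and ZBTB20-AS5 in the same locus fell with it. lnc-DMAC1-8 fell from 22, 21 and 29 counts to 5, 11 and 10 (-1.60 ± 0.34, adjusted p = 0.038). NONHSAG013297.2, ZBTB20-AS5 and lnc-DMAC1-8 reached 180 counts only with those of the control libraries. Control and siSSB libraries did not overlap in these members. The number called dropped to 6 without control total replicate 2, to 6 without siSSB total replicate 1 and to 5 without siSSB total replicate 2, while HSALNG0020274 and lnc-PRKAB2-5 passed under all 16 alternatives. The falling members lost their call under 5 of 16 alternatives (HSALNG0099819 and NONHSAG013297.2), 7 (lnc-C1QTNF6-1) and 9 (lnc-ZNF80-4).

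In cyto, 16 of 3618 members passed, 4 higher and 12 lower, or 0.442% against 0.291% of all features, of which 0.0211% were higher and 0.27% lower. By locus, 3 of 1638 were higher and 6 lower, and the median log2 fold change of the members was 0.03, beside 0.01 for all features. The 4 higher members were those that rose in total RNA. HSALNG0020274 rose from 32, 25 and 30 counts to 3145, 983 and 3304 (6.29 ± 0.52, adjusted p = 0.0024), lnc-PRKAB2-5 from 6, 3 and 7 to 2493, 750 and 2108 (8.27 ± 0.56, adjusted p = 0.00078), and AC024598.1 from 5, 3 and 20 to 131, 52 and 124 (3.43 ± 0.48, adjusted p = 0.033). Replicate 2 of siSSB cyto was the lowest of the siSSB libraries in all 3 members.

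Among the members that fell in cyto, lnc-C1QTNF6-1 went from 369, 240 and 576 counts to 109, 84 and 103 (-2.02 ± 0.27, adjusted p = 0.03). NONHSAG037962.2, which overlaps the set-aside LINC02260, had 88, 44 and 73 counts in control and 13, 10 and 19 in siSSB (-2.36 ± 0.35, adjusted p = 0.033), and lnc-GRIN3A-4 had 25, 27 and 52 against 6, 7 and 9 (-2.25 ± 0.32, adjusted p = 0.033). AL354702.2, LINC00582 in an intron of TSNAX-DISC1, and LIMD1-AS1, antisense to the LIM domain gene LIMD1, fell too, with 25, 36 and 61 control counts against 14, 9 and 8 in LIMD1-AS1 (adjusted p = 0.048). Control and siSSB ranges did not overlap in any of these 6. All of them but lnc-C1QTNF6-1 reached 180 counts only with those of control cyto, the group in which they are higher. Members in the ZBTB20 locus fell too, with -1.97 ± 0.29 for lnc-ZNF80-4 (adjusted p = 0.033). Calls in both total and cyto numbered 9 members in the same direction, which is 69.2% of the total calls and 56.2% of the cyto calls, and 4 loci. The number called in cyto fell to 3 without control cyto replicate 1, 2 without control cyto replicate 2, 2 without siSSB cyto replicate 1 and 4 without siSSB cyto replicate 2, and each of the 6 members did not pass under at least 8 of 16 alternatives.

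In nuc only 1206 of 3669 members held enough counts to be tested, and 1 passed, a share of 0.0829% where 0.378% of all features passed, with 0.0291% higher and 0.349% lower. With edgeR 167 of the 1206 members had an unadjusted p under 0.05, where 959 of all 6873 features tested did. DESeq2 called 0 members. The median log2 fold change was 0.32 over the members tested and 0.08 over all features. The called member was HSALNG0103479 (chr14:96124754-96189365), with 16, 15 and 16 counts in control nuc and 458, 219 and 10 in siSSB nuc. Replicate 3 of siSSB nuc lay below all controls and the other two above them, so the groups overlapped in spite of a change of 3.74 ± 0.77 (adjusted p = 0.045). Without siSSB nuc replicate 1 or 2 no member was called, and without siSSB nuc replicate 3 there were 5.

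The knockdown effect of 3 members differed between nuc and cyto by the test of the interaction, 1 with a more positive and 2 with a more negative effect in nuc, where 0.0133% of all features passed. For lnc-PRKAB2-5 the nuclear minus the cytoplasmic effect was -6.37 ± 0.97 on the log2 scale (adjusted p = 0.00099), its nuclear counts being 1, 4 and 2 in control and 10, 7 and 13 in siSSB. For HSALNG0020274 the difference was -4.81 ± 0.83 (adjusted p = 0.0079), with 5, 1 and 4 nuclear counts in control and 13, 5 and 14 in siSSB. HSALNG0103479 differed the other way, by 5.23 ± 0.95 (adjusted p = 0.014), with 176, 239 and 38 counts in control cyto and 39, 12 and 115 in siSSB cyto. Nuclear counts of lnc-PRKAB2-5 and HSALNG0020274 were few, and the libraries of HSALNG0103479 disagreed within groups. Without control nuc replicate 3 none was left, without control nuc replicate 1 or 2 or siSSB nuc replicate 2 there was 1, and without control cyto replicate 3 and siSSB cyto replicate 2 there were 7 and 6.

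**Figure D2:**
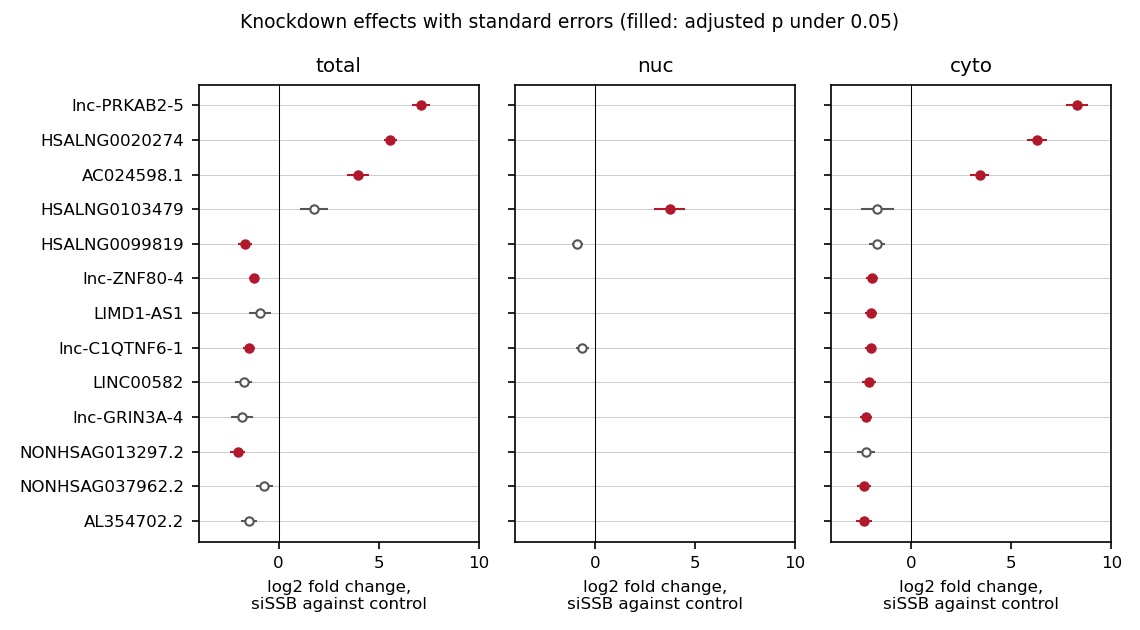
Log2 fold change of siSSB against control with its standard error for the members named in the knockdown comparisons, with a panel each for total, nuc and cyto; filled points passed an adjusted p under 0.05, open points did not, and members without a point held too few counts to be tested. HSALNG0020274, lnc-PRKAB2-5 and AC024598.1 reach 3.43 to 8.27 in cyto, while those that passed as lower lie between -2.36 and -1.97 there.

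Between nucleus and cytoplasm far more members differed. In control cells 665 of 3655 members passed, 331 higher in nuc and 334 lower, or 18.2% against 23.3% of all features, of which 9.21% were higher and 14.1% lower. By locus the split was 108 higher and 200 lower of 1653. In siSSB cells 897 of 3651 members passed, 484 higher and 413 lower, or 24.6% against 25.3% of all features, with 10.8% higher and 14.5% lower, and by locus 129 were higher and 235 lower of 1649. These directions are relative to TMM scaling, under which the median of all features was -0.27 in control. Scaling by column sums alone moved that median to -4.33 and scaling to snoRNA rows to -6.09, and 3623 and 3639 members were then called lower in nuc.

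The fits for control and siSSB cells used different libraries, and 446 members passed in the same direction in both, 233 higher and 213 lower. This is 67.1% of the control calls and 49.7% of the siSSB calls, and 1 member passed in opposite directions. By locus 198 were shared, 70 higher and 128 lower. Of the lncRNA rows holding a small RNA row, 1958 of 4893 passed in control and 2050 of 4889 in siSSB.

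By number of loci, those like mitochondrial DNA, tRNA or Y RNA leaned to the cytoplasm, and the rRNA-like ones did not. Loci like the small nuclear RNAs U2, U5 or U11 stood at 0.03 (lnc-CDK5R1-3) to 1.22 (AP000442.2) in control. The U6-like lnc-DNAJC28-6 was at -1.60, and none of these passed. Loci like the small nuclear RNA 7SK ran from -2.59 (lnc-FHOD1-2, adjusted p = 0.00063) to 0.05 (NONHSAG031339.2) in control, where only lnc-FHOD1-2 passed. In siSSB cells lnc-PLCG2-8, lnc-FHOD1-2, NONHSAG031339.2 and lnc-MRPS23-1 passed as lower, at -1.30, -3.97, -2.13 and -2.02. The 7SK-like AC067930.3 and AC098829.1 did not pass there. In control cells 24 of the 67 loci with an identical stretch were lower in nuc and 4 higher, with a median log2 fold change of -0.48. Of the 1586 loci in which none of the sequences searched was found, 176 were lower and 104 higher, with a median of -0.11. Mitochondria-like loci had 8 of 18 lower and 0 higher (median -1.25), and in siSSB cells 10 of 18 lower. Mitochondria-like loci with the most counts, NONHSAG053892.2, lnc-IRS2-1, lnc-SAMD11-13 and lnc-SAMD11-12, were not called, at 0.25, 0.06, -0.20 and -0.34 in control. AC105402.3, the next by counts, was called at -2.76. tRNA-like loci had 6 of 9 lower (median -2.89) and 5 of 9 in siSSB cells. lnc-ANGEL1-5 holds bases 4 to 38 of tRNA-Gly-TCC-1-3, the tRNA that lnc-DPY19L1-1 also matched. It was not called, at -0.02 in control and 0.23 in siSSB cells. All 5 loci that hold a tRNA from base 1, a cut that leaves out lnc-ANGEL1-5, were lower in control cells, and 4 of 5 in siSSB cells. Among them lnc-PLEKHA5-3, LINC01720 and lnc-DPY19L1-1 held 301, 295 and 856 summed counts. Whether these loci reached the count threshold only with their cyto counts was not tested. If so, they had to be lower in nuc, so the tally may in part reflect how members were chosen. Of the 8 loci like a Y RNA 5 were lower in control and 7 in siSSB cells. FP475955.3, LINC01297, NONHSAG014341.2, lnc-POTEC-1 and lnc-POTED-5 hold the same bases 62 to 100 of RNY3, with 339 to 403 summed counts. Whether they share reads was not tested, so they may not be separate observations. The rRNA-like loci were split, 4 higher and 4 lower of 18 in control, with a median of 0.41 that turned negative under scaling by column sums (-3.70) or to snoRNA rows (-5.47). Scaled to miRNA rows this median was 0.01. In siSSB cells 2 rRNA-like loci were higher and 4 lower, with a median of -0.16 under TMM scaling. The 5 loci that hold a tRNA from base 1 were also called lower scaled by median-of-ratios factors, by TMM factors from the members alone and to miRNA rows, and under the remaining scalings nearly every locus was.

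**Figure D3:**
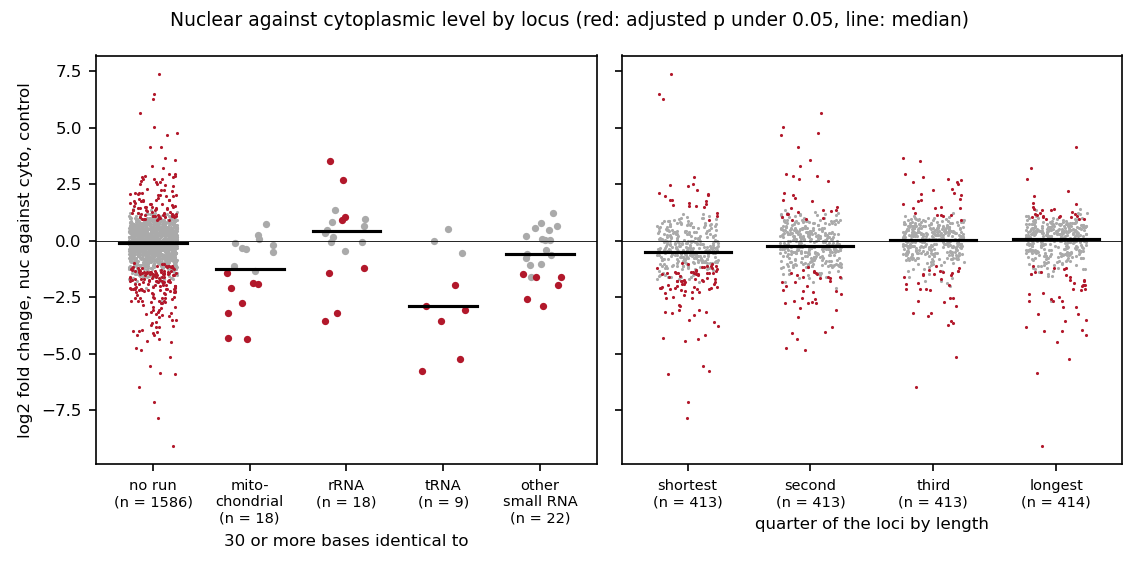
Log2 fold change of nuc against cyto in control cells under TMM scaling, 1 point per locus, grouped by the kind of sequence the locus is identical to over 30 or more bases and by 4 equal groups of locus length; red points passed an adjusted p under 0.05 and the bar is the median. The tRNA-like and mitochondria-like loci lie mostly below 0 with medians of -2.89 and -1.25, and the median rises from the shortest to the longest group. The lowest points are loci at or near 0 counts in nuc, whose fitted values are not exact, and under scaling by column sums the medians of all kinds lie below 0.

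HSALNG0021982, with the 5′ portion of tRNA-Gly-TCC-2-1 printed above, had 149, 128 and 172 counts in control cyto and 1, 0 and 1 in control nuc. Its log2 fold change was -5.75 ± 0.60 in control (adjusted p = 2.4e-09) and -5.35 ± 0.66 in siSSB cells, where cyto held 127, 75 and 110 counts and nuc 0, 0 and 2. NONHSAG037591.2, with the same portion of tRNA-Pro-AGG-1-1, had 300, 221 and 347 counts in control cyto and 8, 7 and 4 in control nuc, a change of -3.55 ± 0.40 (adjusted p = 1.1e-08). The identical stretch covers a small share of either row, 38 bases of 8279 and of 488119. lnc-DPY19L1-1 was at -3.05 in control and -4.57 in siSSB cells, whereas lnc-PLEKHA5-3 was at -2.89 (adjusted p = 0.00036) in control and at -0.38 in siSSB cells, where it did not pass. lnc-POTEC-1, with the 3′ portion of RNY3, was at -1.01 in control and did not pass, and at -4.35 in siSSB cells (adjusted p = 2.0e-05).

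Loci with rRNA sequence lay on both sides. lnc-COMMD10-10 had 2404, 2954 and 2093 counts in control nuc and 793, 685 and 1049 in control cyto, or 84.4 ± 16.9 CPM (SD, n = 3) against 7.90 ± 0.77, a log2 fold change of 3.54 ± 0.31 (adjusted p = 6.6e-11). In siSSB cells it passed as well (adjusted p = 7.4e-07). lnc-PPP4R1-15, which overlaps an exon of ANKRD12 and holds an internal stretch of 28S rRNA, was higher in nuc too, with 22.2 ± 4.70 CPM against 3.75 ± 1.18 (2.70 ± 0.32, adjusted p = 3.1e-08). AC024563.1, with 18S rRNA sequence, was lower, with 88, 36 and 40 counts in control nuc and 2401, 1892 and 3133 in control cyto (-3.56 ± 0.34, adjusted p = 5.2e-10). lnc-GCNT1-4, with 28S rRNA sequence, was at -1.43 ± 0.32 (adjusted p = 0.00067), and lnc-SLC15A4-24, from a nearby part of 28S rRNA, was at 0.65 ± 0.28 and did not pass. The values of lnc-COMMD10-10 and lnc-PPP4R1-15 turned negative under scaling by column sums, to -0.63 and -1.44.

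Among members higher in nuc in which no such stretch was found, lnc-DZANK1-1 is shown first. It overlaps an exon of ZNF133, a zinc finger gene, and had 61, 127 and 191 counts in control nuc and 3, 1 and 5 in control cyto, with 108, 154 and 66 against 3, 4 and 0 in siSSB cells. The log2 fold change was 7.37 ± 0.54 in control (adjusted p = 1.2e-12) and 7.21 ± 0.55 in siSSB cells, and it stayed positive under each scaling tried. It held 707 counts in nuc, 28 in total and 16 in cyto, so it became a member only through the nuclear libraries in which it is higher. lnc-GTF2B-6, which overlaps an exon of the kinase gene PKN2, had 216, 256 and 265 counts in control nuc and 45, 35 and 95 in control cyto (4.13 ± 0.35, adjusted p = 3.8e-11). DLEU1, a lncRNA of a region often deleted in leukemia, was at 6.07 ± 1.43 CPM in control nuc and 0.708 ± 0.101 in control cyto (3.22 ± 0.33, adjusted p = 1.8e-09). ENSG00000245248.8, over an exon of the ubiquitin peptidase gene USP2, NONHSAG026080.2, over an exon of the phosphatase gene PPP5C, and THUMPD3-AS1 were higher by 2.27 ± 0.34, 2.26 ± 0.36 and 2.58 ± 0.38. lnc-UBLCP1-2 was called among the largest in siSSB cells (4.81 ± 0.62), but its siSSB nuc counts were 35, 220 and 16, so that replicate 2 held most of them, and it reached 180 counts only with those of siSSB nuc. Nuclear and cytoplasmic libraries did not overlap in these members, and under scaling by column sums DLEU1, ENSG00000245248.8, NONHSAG026080.2 and THUMPD3-AS1 turned negative.

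Among members lower in nuc, lnc-DMAC1-8, over an exon of the complex I assembly gene DMAC1, had 0 counts in all 3 control nuc libraries and 125, 89 and 93 in control cyto. It was at least 28.4-fold lower in nuc, against a floor of 3 counts over the group, and was at -4.43 ± 0.90 on the log2 scale in siSSB cells. NONHSAG013297.2 had 1, 1 and 0 counts in control nuc and 200, 98 and 188 in control cyto (-5.86 ± 0.62, adjusted p = 3.4e-09). lnc-PDLIM1-1, over an exon of ACSM6, had 3, 3 and 1 against 351, 375 and 174 (-5.13 ± 0.54, adjusted p = 3.3e-09). lnc-DCTD-14, over an exon of the teneurin gene TENM3, had 4 counts in each control nuc library and 416, 276 and 327 in control cyto (-4.46 ± 0.44, adjusted p = 7.4e-10). lnc-CLCN4-2, over an exon of the chloride transporter gene CLCN4, was at -3.98 ± 0.42 and lnc-ZNF860-1, over an exon of ZNF860, at -3.27 ± 0.37 in control and -4.27 ± 0.47 in siSSB cells. In siSSB cells, the members that rose in the knockdown also passed as lower in nuc, with -5.61 ± 0.48 for lnc-PRKAB2-5, -5.99 ± 0.51 for HSALNG0020274 and -4.77 ± 0.64 for AC024598.1, against 0.76, -1.16 and -2.66 in control, where they did not pass. NONHSAG013297.2, lnc-DMAC1-8 and AC024598.1 reached 180 counts only with those of the cyto libraries, in which they are higher.

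**Figure D4:**
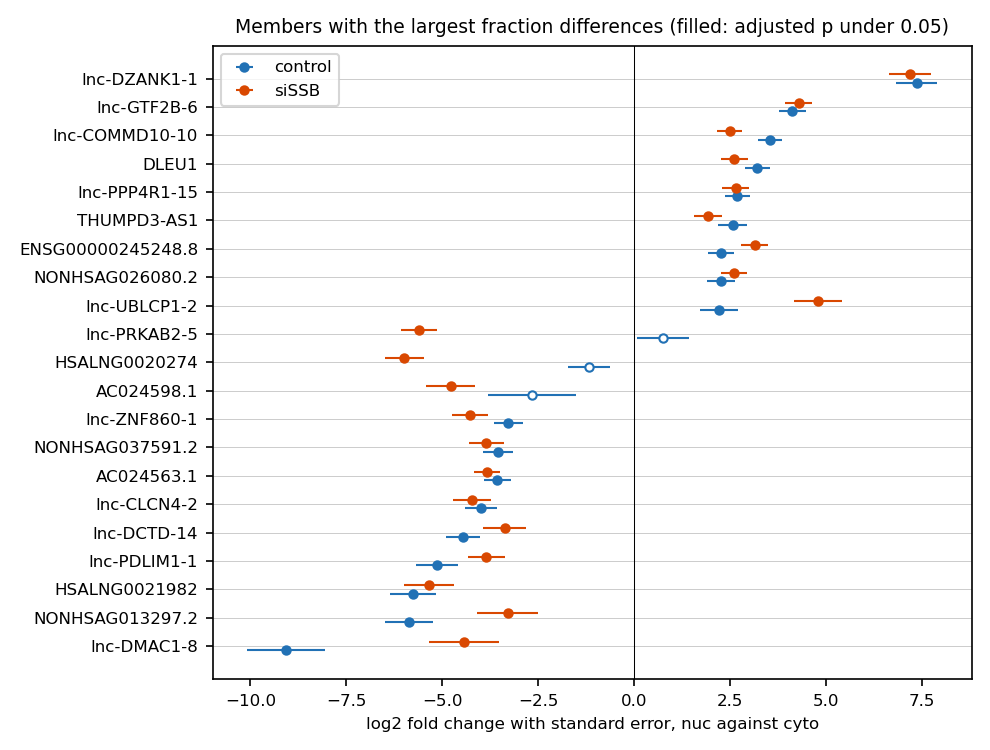
Log2 fold change of nuc against cyto with its standard error for the members named in the comparisons of fractions, for control (blue) and siSSB cells (orange); filled points passed an adjusted p under 0.05. Control and siSSB points lie near each other for most members, from 7.37 and 7.21 in lnc-DZANK1-1 to -5.75 and -5.35 in HSALNG0021982. They lie apart for members such as lnc-PRKAB2-5, HSALNG0020274, NONHSAG013297.2 (-5.86 and -3.29) and AC024598.1 (-2.66 and -4.77). The control point of lnc-DMAC1-8 is a fitted value against 0 counts and is no bound, and under scaling by column sums most of the values above 0 turn negative.

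Well known lncRNAs were few among the members. Of 18 names of nuclear or chromatin-associated lncRNAs 7 were members, 8 had fewer than 180 counts in every row without a small RNA row, 2 had no row over 500 nt without one and 1 had no row. The name with no row was CHASERR, another name of the member LINC01578. KCNQ1OT1, an imprinted antisense RNA of the KCNQ1 locus, had 36, 19 and 15 counts in control nuc and 24, 34 and 48 in control cyto, or 0.767 ± 0.276 CPM against 0.326 ± 0.0551 (1.35 ± 0.36, adjusted p = 0.0047). CDKN2B-AS1, antisense to a cell cycle inhibitor, had 0.470 ± 0.0451 CPM in control nuc against 0.185 ± 0.0793 in control cyto (1.48 ± 0.40, adjusted p = 0.006). FIRRE, LINC-PINT, TUG1, LINC01578 (CHASERR) and SOX2-OT did not pass in control cells, with log2 values of 0.49, 0.32, -0.38, -0.11 and -0.95. KCNQ1OT1 passed in siSSB cells as well (1.20 ± 0.36, adjusted p = 0.013) and CDKN2B-AS1 did not (0.72 ± 0.36), and both control values turned negative under scaling by column sums or to snoRNA rows. The control call was also lost under 4 of 16 alternatives for KCNQ1OT1, among them those without control cyto replicate 1 or control nuc replicate 1, and under 3 for CDKN2B-AS1, among them the one without control cyto replicate 2.

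Of 8 names of cytoplasmic lncRNAs 3 were members, and LINC00657, another name of the member NORAD, had no row. NORAD, a sponge of Pumilio proteins, had 10, 8 and 6 counts in control nuc and 38, 28 and 67 in control cyto, which did not pass (-0.46 ± 0.40), and was lower in nuc in siSSB cells (-1.02 ± 0.38, adjusted p = 0.047). OIP5-AS1 was at -0.71 ± 0.53 and CYTOR at 0.37 ± 0.50 in control, and neither passed there or in siSSB cells. None of these 10 known members passed in a knockdown comparison. The rule left out the hosts of intronic snoRNAs: of 14 such names 0 were members, 7 having no row over 500 nt without a small RNA row, 6 having fewer than 180 counts in those that lack one and 1 having no row.

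By annotation, 2592 members overlapped an exon of a protein-coding gene, 95 lay in introns alone and 982 overlapped no coding gene, and 969 held a pseudogene. The use of strand in the counting is not given in the sources used here, so reads of an overlapping mRNA or of the lncRNA cannot be told apart in the 2592. Member lengths ran from 502 to 985241 nt with a median of 34043. The loci were put into 4 equal groups by length. In control cells the shortest group, up to 10695 nt, had 86 of 413 lower in nuc and 24 higher with a median log2 fold change of -0.51, and the longest group had 42 of 414 lower and 27 higher with a median of 0.09. The groups between them were at -0.22 and 0.04. Loci with a pseudogene and no coding exon had 31 of 147 lower and 5 higher (median -0.40), while those over a coding exon had 119 of 1329 lower and 82 higher (median -0.09). Under scaling by column sums 1641 of 1653 loci were called lower, so that the positive medians do not hold there.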

How the data were processed

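The data deposited by the authors were raw, unnormalized counts for each noncoding RNA feature for 18 small RNA libraries of 6 groups (control or siSSB in total, nuc and cyto, 3 libraries each). Groups and replicate numbers came from the sample titles, and 0 columns of the table were left unused. The submitters' processing notes name Bowtie2, bedtools and hg38. Trimming, the treatment of reads with several positions and the use of strand are not given in the sources used here. Overlapping rows share reads, so column sums are not numbers of reads, and no molecular identifiers were described, so floors cover counting error only.

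The counts were tested with edgeR 4.0.16 (quasi-likelihood F-test, TMM factors, filterByExpr; R 4.3.3, limma 3.58.1), each pair of groups on its own 6 libraries and the difference of the knockdown effects as an interaction on 12. Benjamini-Hochberg adjustment ran over every feature in a fit, and calls were made where the adjusted p fell under 0.05. The standard error is the absolute log2 fold change divided by the square root of F. Levels used 1 set of TMM factors over the 18 libraries. The fit was tested on simulated data with known changes. No library pair of a group agreed within sampling noise. P-values measure the spread between the deposited libraries.

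Annotation came from GENCODE v44 and RefSeq (GRCh38.p14), and sequences from hg38. Identical stretches of at least 30 bases to mitochondrial DNA, rRNA, tRNA and other small RNA sequences were found by exact matching, and the tRNA-like stretch with blastn 2.17.0. The stretch of 1 rRNA-like locus is not reported here. Tables were handled in python 3.11.15 with pandas 2.3.3.

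Named members were the 12 loci with the highest CPM per kb in any of their members. Added to these, per knockdown comparison and for the difference of effects, were up to 6 higher and 6 lower that were called, averaged 20 counts or more and had ranges that did not overlap (no condition on ranges for the difference). Per comparison of fractions up to 8 each way with a mean of at least 50 counts were named, and further the known lncRNAs and the neighbours of the threshold. Within each of these conditions a locus was named once, by the member with the highest summed count among those that met it. AC024598.1 in total, AC067752.1, ZBTB20-AS5, lnc-DMAC1-8 in total, lnc-ZNF80-4 in cyto, lnc-POTED-5, HSALNG0103479 in nuc and the loci chosen for their sequences were named after their values were seen. The members and the gene lists were chosen with earlier results of these data known. The alternatives were other scalings, DESeq2 1.42.0, other filters and thresholds, a replicate block and leaving out each library.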

Additional observations from a re-analysis of the deposited data

Results flagged for a closer look

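The knockdown effect of 3 members differed between nuc and cyto by the interaction test. The difference, nuclear minus cytoplasmic log2 fold change, was -6.37 for lnc-PRKAB2-5 and -4.81 for HSALNG0020274, which share SSB sequence, and 5.23 for HSALNG0103479. The first 2 were lost in 2 and 3 of 22 alternatives, each of them a fit without a nuc library. HSALNG0103479 was lost in 9 of 22, and its libraries disagreed within groups, with 458, 219 and 10 counts in siSSB nuc. Groups of 3 libraries are too small for a check of single libraries that stand apart.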

How the results depend on the processing

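The number of members called was sensitive to the scaling. In total RNA it was 13, and it became 2 at an adjusted p under 0.01, 8 with TMM factors from the members alone, 351 scaled to the miRNA rows and 28 with no filter beyond 1 count. The split of 4 higher and 9 lower became 16 and 2 with library size alone and 16 and 0 scaled to the snoRNA rows. In nuc the 1 call became 0 at an adjusted p under 0.01, with library size alone, scaled to the snoRNA rows, with DESeq2 and with identical rows taken once, 5 scaled to the miRNA rows and 9 with no filter. In cyto the 16 became 3, 4 and 3 at the stricter threshold, with library size alone and scaled to the snoRNA rows, 26 scaled to the miRNA rows, 25 with DESeq2 and 39 with no filter. For nuc against cyto in control, 665 became 396 at the stricter threshold, 3632 with library size alone and 3642 scaled to the snoRNA rows, and its split of 331 higher and 334 lower became 114 and 459 scaled to the miRNA rows and 115 and 514 with no filter. In siSSB cells 897 became 488, 3622, 3642 and, scaled to the miRNA rows, 541, and the split with no filter was 181 and 555. The 3 differences of effects became 6 scaled to the miRNA rows and 5 with no filter. Leaving out 1 library at a time gave 5 to 19 calls in total, 0 to 5 in nuc, 2 to 15 in cyto, 499 to 662 and 598 to 840 for nuc against cyto in control and siSSB, and 0 to 7 for the difference of effects. The cause was not tested.

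A replicate block gave 15 calls in total, 5 in nuc, 4 in cyto, 683 and 911 for nuc against cyto in control and siSSB, and 2 for the difference of effects. The numbers were not taken as pairing, since same-number correlations of deviations between control and siSSB ran from -0.42 to 0.13 and samples did not always correlate best with their own number.

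Some values changed sign, and the cause was not tested. With library size alone the control values of nuc against cyto became -0.63 (lnc-COMMD10-10), -0.95 (DLEU1), -1.44 (lnc-PPP4R1-15), -1.55 (THUMPD3-AS1), -1.86 (ENSG00000245248.8), -1.86 (NONHSAG026080.2), -2.80 (KCNQ1OT1), -3.66 (FIRRE), -2.64 (CDKN2B-AS1), -3.82 (LINC-PINT) and -3.73 (CYTOR), and the siSSB values -1.25 (lnc-COMMD10-10), -1.26 (DLEU1), -1.22 (lnc-PPP4R1-15), -0.73 (ENSG00000245248.8) and -1.26 (NONHSAG026080.2). Scaled to the snoRNA rows the control values, in the same order, were -2.44, -2.75, -3.21, -3.33, -3.64, -3.62, -4.61, -5.46, -4.41, -5.66 and -5.49, with -1.74 for lnc-GTF2B-6, and the siSSB values -3.25, -3.30, -3.25, -2.77 and -3.28, with -1.55 for lnc-GTF2B-6 and -0.76 for lnc-UBLCP1-2. LINC-PINT was also at -0.021 scaled to the miRNA rows, -0.14 with no filter, -0.04 without control cyto replicate 3 and -0.34 without control nuc replicate 1, CYTOR at -0.024, -0.10 and -0.058 under the first, second and last of these, and LINC01578 at 0.14 under the last. Leaving out 1 library at a time, LINC-PINT ran up to 0.83 and CYTOR up to 0.60, and LINC01578 down to -0.32. Nuclear libraries held a median of 6 to 10 counts per member, which limits all comparisons with nuc.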
